A study of Mus musculus with 8 samples.

Results

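The genes described here are the members of the 4 mouse Hox clusters, HoxA to HoxD, and were taken as every listed gene symbol made of Hox, a cluster letter and a paralog number. This rule found 39 genes of 31053 listed, in 40 entries, because Hoxd4 was counted under 2 Ensembl identifiers. They were measured by droplet-based scRNAseq in dorsal skin of female BALB/c mice aged 14 to 16 weeks. Skin was injected subcutaneously with PBMCsec, the medium conditioned by irradiated human peripheral blood mononuclear cells, or with a vehicle control, and each treatment gave 4 libraries from 4 mm biopsies. All 8 libraries shared strain, sex, age range and tissue, and no transgene or deletion was named. The labels give neither the level of the biopsy along the back, nor the time after injection, nor any wounding, nor the solution used as vehicle. They also do not say that each library came from a separate mouse, so that p-values measure the spread between these libraries only.

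Hox genes encode homeodomain transcription factors. Their order within a cluster follows the order in which they are used along the body from head to tail, with paralog group 1 at the anterior end and group 13 at the posterior end. Adult skin fibroblasts (FBs) keep part of this pattern from the embryo, so that the set of active Hox genes differs between skin of the trunk, limbs and face. Hox proteins often bind DNA together with TALE homeodomain partners of the Pbx and Meis families.

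Counts are unique molecular identifiers (UMIs), each standing for 1 captured transcript, and a level in CPM (counts per 1000000) is the number of UMIs of a gene in every 1000000 UMIs of a cell class in a library. Transcripts were counted from their 3′ ends, so that a level does not grow with transcript length. The 8 libraries held 14753926 to 37880651 UMIs, and 6150 of 26231 barcodes passed the filter on cell quality, 151 to 1659 per library, with a median of 6156 to 9521 UMIs. The mitochondrial limit of 5% alone was exceeded by 16900 barcodes. Across libraries 78 barcode sequences occurred more than once, 4 of them among the cells kept. Cells were grouped into 1472 FBs, 2642 epithelial cells (1733 keratinocytes, KCs, and 909 hair follicular cells, HFs), 183 vascular cells, 1500 immune cells and 353 other or unnamed cells. No Hox gene was among the 2000 genes used for clustering. The 10 FB markers summed to 51144 CPM in FBs and to 198 CPM in epithelial cells. Vehicle 1 and vehicle 2 held only 28 and 20 FBs, and in vehicle 2 a single UMI was worth 6.18 CPM in FBs.

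The kept cells held 19512 Hox UMIs, and 34 of the 39 genes had at least 1. HoxC genes gave 9389 of these UMIs (48.1%), HoxB genes 4871 (25%), HoxA genes 4146 (21.2%) and HoxD genes 1106 (5.67%). There were 22 genes with at least 100 UMIs, from Hoxa2 with 109 to Hoxc8 with 3344. Among the less abundant genes, Hoxa4 (95) and Hoxa6 (73) had most of their UMIs in epithelial cells, Hoxa10 (84) had 83 in FBs, and Hoxd10 (42) had 41 in vascular cells. Hoxd3 held 14 UMIs and Hoxc12 held 11, of which 8 lay in epithelial cells. Below 10 UMIs were Hoxc11 with 6, Hoxb1 and Hoxd11 with 4 each, Hoxd1 with 1, and Hoxd4 with 8 under one identifier and 1 under the other. Of the annotated exon bases of Hoxd3, 62.3% overlap other genes on the same strand, as do 52.3% of those of Hoxd4. The overlaps include each other, so their counts are uncertain.

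Hoxa11, Hoxa13, Hoxb13, Hoxd12 and Hoxd13 had no UMI in the kept cells and none in the whole set of barcodes. A count of 0 allows up to 0.0595 CPM in the kept cells and 0.0141 CPM over all barcodes. These genes act mainly in the limb bud, the tail and the urogenital tract, at the posterior or distal end of the Hox order. From paralog groups 11 to 13 only Hoxc13 passed 11 UMIs, and it lay in hair-forming epithelium rather than in FBs.

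**Figure D1:**
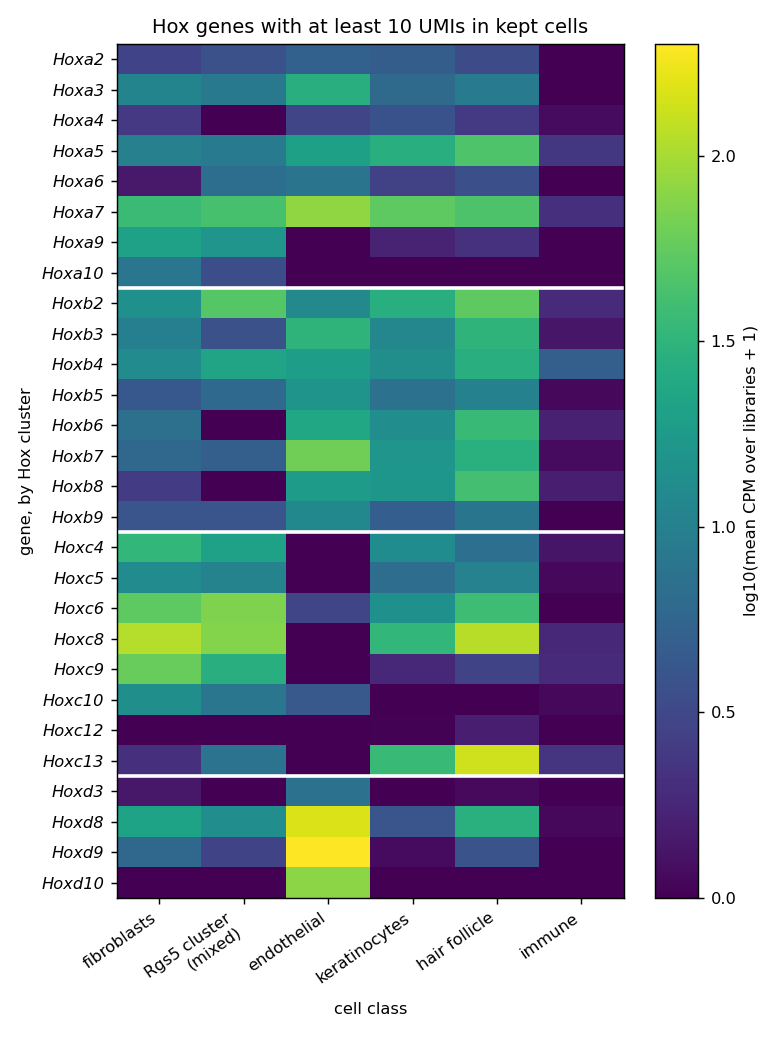
Levels of 28 Hox genes with at least 10 UMIs (rows, ordered by cluster and paralog number) in 6 cell classes (columns). Colour gives log10 of the mean CPM over libraries plus 1. Hoxc4, Hoxc6, Hoxc8 and Hoxc9 are bright in FBs, Hoxc13 in hair follicle cells, and Hoxd8, Hoxd9 and Hoxd10 in endothelial cells, while the immune column stays dark.

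FBs carried a HoxC-dominated set. HoxC genes made up 62.5 ± 3.39% of Hox UMIs in FBs (SD, n = 8 libraries), with a range of 56.8% to 66.7%, against 19.3 ± 3.49% for HoxA, 12.3 ± 4.46% for HoxB and 5.91 ± 2.20% for HoxD. All 8 libraries kept this predominance of HoxC. The summed level of all Hox genes in FBs was 444 ± 64.1 CPM, and 91.6% of FBs held at least 1 Hox UMI. After each cell was thinned to 1000 UMIs this share was 36.0%, against 1.36% in immune cells, where it was 5.47% before thinning. Median depth was 9039.5 UMIs in these FBs and 3856.5 in immune cells.

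Hoxc8, a gene of the mid-trunk domain, was the most abundant Hox gene of FBs. Its level was 77.5, 62.0, 124 and 128 CPM in PBMCsec libraries 1 to 4 and 137, 92.6, 144 and 114 CPM in vehicle libraries 1 to 4, with a mean of 110 ± 29.5 CPM (n = 8). Its neighbour Hoxc9 gave 36.7, 16.3, 57.9 and 75.0 CPM after PBMCsec and 72.5, 43.2, 68.1 and 84.3 CPM after vehicle. Both genes were lowest in PBMCsec 2, and their ranges overlapped between treatments. Hoxc6 was the steadiest of the 4 leading HoxC genes in relation to its mean, at 52.6 ± 9.89 CPM with a range of 34.1 to 64.2. Hoxc4 stood at 32.6 ± 15.3 CPM and was highest in PBMCsec 1 and PBMCsec 2, at 46.9 and 63.7 CPM. Hoxc5 was lower, at 11.9 ± 3.37 CPM.

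Outside HoxC, Hoxa7 led in FBs at 36.3 ± 16.4 CPM, with its lowest value of 6.18 CPM, a single UMI, in vehicle 2. Hoxd8 stood at 20.5 ± 8.53 CPM and Hoxa9 at 19.6 ± 14.8 CPM. HoxB genes stayed low in FBs. Their highest means were those of Hoxb2 (13.1 ± 6.16 CPM), Hoxb4 (11.9 ± 7.50) and Hoxb3 (8.89 ± 4.18), while Hoxb8 gave 1.56 ± 1.29 CPM. The FB means of Hoxb6 (6.06 ± 7.83 CPM) and Hoxb9 (3.02 ± 6.43) rested largely on vehicle 2, with 24.7 and 18.5 CPM from its 20 FBs. In Hoxa3, Hoxa5 and Hoxd9 the means were 9.93 ± 5.18, 9.12 ± 2.48 and 4.90 ± 2.29 CPM.

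**Figure D2:**
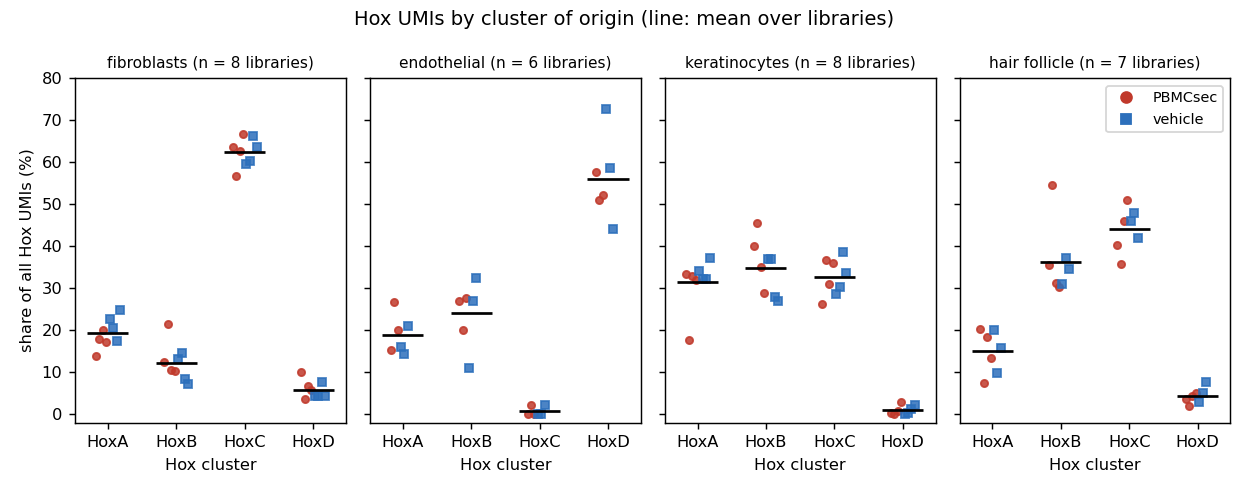
Share of all Hox UMIs that came from each Hox cluster, in %, with 1 point per library (circles PBMCsec, squares vehicle) and a line at the mean. Only libraries with at least 10 cells of the class are drawn. HoxC takes the largest share in FBs (56.8% to 66.7%), HoxD in endothelial cells (mean 56.1%), and HoxB and HoxC lie close together in KCs.

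The posterior genes of the FB set varied widely between libraries. In FBs, paralog groups 9 to 13 gave 15.3%, 5.16%, 24.4% and 22.6% of Hox UMIs in PBMCsec 1 to 4 and 28.9%, 35.3%, 19.5% and 33.1% in vehicle 1 to 4. Exact binomial intervals reached from 2.61% to 9.05% in PBMCsec 2 and from 29.7% to 36.7% in vehicle 4, so that these libraries differed by more than counting error, which is all that such an interval covers. Vehicle 2, with 68 Hox UMIs in its FBs, had a wide interval of 24.1% to 47.8%. The mean was 16.9 ± 8.72% after PBMCsec and 29.2 ± 7.01% after vehicle (n = 4 each), and the groups overlapped. No test was run on this share, which sums over the members. Posterior genes also differed between FB clusters, and the mix of these clusters in each library was not compared. Hoxa10 was at 12.8 CPM in the FB cluster led by Sfrp2 and at 0 in that led by Igfbp2. Hoxa9 ranged from 24.9 to 6.72 CPM over FB clusters.

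Hoxc10 and Hoxa10, which mark lumbar levels in the embryo, followed the same pattern in FBs. Hoxc10 was at 3.00, 0, 14.5 and 13.5 CPM in PBMCsec 1 to 4 and at 17.1, 18.5, 4.96 and 33.5 CPM in vehicle 1 to 4. Hoxa10 was at 0, 0, 9.94 and 3.85 CPM and at 8.53, 18.5, 2.48 and 13.2 CPM in the same order. Both were low in PBMCsec 1, PBMCsec 2 and vehicle 3, and high in vehicle 4. Hoxa9 was at 6.01, 0, 25.1 and 8.98 CPM after PBMCsec and at 29.9, 43.2, 13.1 and 30.7 CPM after vehicle.

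The order of libraries was close to the same for a different measure, taken over all barcodes, which include the kept FBs. This measure sets each gene against Hoxc8, which epithelial cells also held, while Hoxc10 and Hoxa10 had 0 UMIs in kept epithelial cells. The shares thus also depend on the mix of cells in a library. Of the summed UMIs of Hoxc10 and Hoxc8 over all barcodes, Hoxc10 gave 2.72%, 0.115%, 4.82% and 3.14% in PBMCsec 1 to 4 and 7.11%, 7.56%, 1.19% and 6.24% in vehicle 1 to 4. For Hoxa10 and Hoxc8, the share of Hoxa10 was 0.511%, 0%, 2.86% and 0.813% after PBMCsec and 2.68%, 4.53%, 0.342% and 2.85% after vehicle. PBMCsec 2 was thus lowest and vehicle 2 highest for both genes, and vehicle 3 was the second lowest. The position of each biopsy along the back is not in the labels. Hoxc10 and Hoxc5 share 8.70% and 5.37% of their exon bases on the same strand.

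In epithelial cells the balance shifted from HoxC to HoxB and HoxA. HoxB gave 35.6 ± 6.18% of epithelial Hox UMIs, HoxC 37.1 ± 5.26%, HoxA 24.9 ± 6.53% and HoxD 2.29 ± 1.60% (n = 8), at a summed level of 390 ± 90.0 CPM. FBs and epithelial cells of the same libraries were compared with edgeR, in which 15 Hox genes passed the filter on low counts. Adjusted p-values were under the threshold of 0.05 for 6 of these that were higher in FBs and for 7 that were lower. Over all 9804 genes tested, 32.0% were higher and 36.8% were lower in FBs, so the count of Hox genes called was close to the background. Among the genes that passed the filter, the 5 HoxC genes and Hoxd8 were higher in FBs, and the 6 HoxB genes and Hoxa5 were lower. Some of these passed mainly through the class in which they were high, such as Hoxc9 in FBs and Hoxb8 in epithelial cells, and Hoxc13, a HoxC gene that did not pass, went the other way. Hoxa3 and Hoxa7 did not pass, with log2 fold changes of 0.41 (SE 0.20) and −0.40 (SE 0.24).

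Among the genes that passed the filter and were higher in FBs, Hoxc9 differed most, with a log2 fold change of 5.27 (SE 0.21, edgeR adjusted p = 7.71e-11). It reached 56.8 ± 23.0 CPM in FBs against 1.07 ± 1.12 CPM in epithelial cells, and was higher in FBs in 8 of 8 libraries. Hoxc4, Hoxc6, Hoxc8 and Hoxc5 followed with log2 fold changes of 1.59, 1.44, 1.05 and 0.68, and Hoxd8 with 1.07. Hoxc8 was thus shared by both compartments, at 51.0 ± 12.1 CPM in epithelial cells, while Hoxc9 had 43 UMIs in epithelial cells against 793 in FBs.

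Among the genes that passed the filter and were lower in FBs, Hoxb8 differed most, with a log2 fold change of −3.89 (SE 0.28, edgeR adjusted p = 3.02e-08). Hoxb8 stood at 21.6 ± 5.01 CPM in epithelial cells and was higher there in 8 of 8 libraries. Hoxb6 and Hoxb7 had log2 fold changes of −2.56 and −2.30, Hoxa5 of −1.78, Hoxb2 of −1.27, Hoxb3 of −1.06 and Hoxb4 of −0.60. Hoxb4 was the least stable of them, and missed the threshold in 5 of 13 alternative settings. In epithelial cells Hoxb2 was at 32.8 ± 7.06 CPM, Hoxa5 at 31.0 ± 6.57, Hoxb7 at 18.5 ± 6.23 and Hoxb6 at 18.1 ± 4.38. Hoxa7 was at 50.4 ± 20.3 CPM there, with PBMCsec 2 far below the others at 6.84 CPM.

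Without a filter on low counts 10 Hox genes were higher and 11 were lower in FBs, and 12 entries were not called. Of all genes, 22.2% were higher and 24.8% were lower. The genes added on the FB side were Hoxa9, Hoxa10, Hoxc10 and Hoxd9. Hoxc10 had 162 UMIs in FBs and 0 in epithelial cells, which makes it at least 106-fold higher, and Hoxa10 had 83 and 0, at least 54.6-fold higher, each against a floor of 3 counts over all epithelial cells. The ratio for Hoxa9 was 38.6 (95% counting interval 21.7 to 75.8). The genes added on the epithelial side were Hoxc13, Hoxa6, Hoxb5 and Hoxb9. Hoxc13 had the log2 fold change furthest below 0, −5.50 (SE 0.23, edgeR adjusted p = 1.68e-15), and was lower in FBs in 8 of 8 libraries. Taken by paralog group, groups 9 to 12, which leave out Hoxc13, gave 1.78 ± 1.39% of epithelial Hox UMIs against 22.8 ± 9.85% in FBs. With Hoxc13 included, groups 9 to 13 gave 20.0% in epithelial cells and 22.7% in FBs, with all cells of a class summed.

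Hoxc13, which drives hair keratin genes and is needed for hair and nail formation, was the posterior gene with the most UMIs in epithelial cells. It had 2088 of its 2412 UMIs in epithelial cells and 21 in FBs, a ratio of 50.4 in CPM (counting interval 32.9 to 81.6). A further 288 UMIs lay in an unnamed cluster of 219 cells led by Tagln, Dio3 and Acta2, at 142 CPM. In epithelial cells it was at 18.9, 41.0, 58.1 and 102 CPM in PBMCsec 1 to 4 and at 4.44, 49.3, 115 and 80.7 CPM in vehicle 1 to 4. The lowest value belonged to vehicle 1, in which 1 of the 23 epithelial cells was an HF.

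HFs held 173 CPM of Hoxc13 and KCs 41.1 CPM when all cells were summed, a ratio of 4.20 (counting interval 3.84 to 4.60). By library, HFs gave 71.5, 37.9, 201 and 192 CPM in PBMCsec 1 to 4 and 101, 197 and 144 CPM in vehicle 2 to 4. KCs gave 4.05, 43.2, 15.8 and 54.6 CPM and 35.4, 61.9 and 59.4 CPM in the same libraries. HFs were higher in 6 of the 7, with PBMCsec 2 as the exception. The cluster led by Krt25, Krt71 and Tchh, which encode proteins of the inner root sheath, held 300 CPM. The KC clusters with high Hoxc13 were those led by Krt6a (209 CPM) and Pthlh (135 CPM), and both also carried HF markers. In the other 6 KC clusters Hoxc13 was at most 10.9 CPM.

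**Figure D3:**
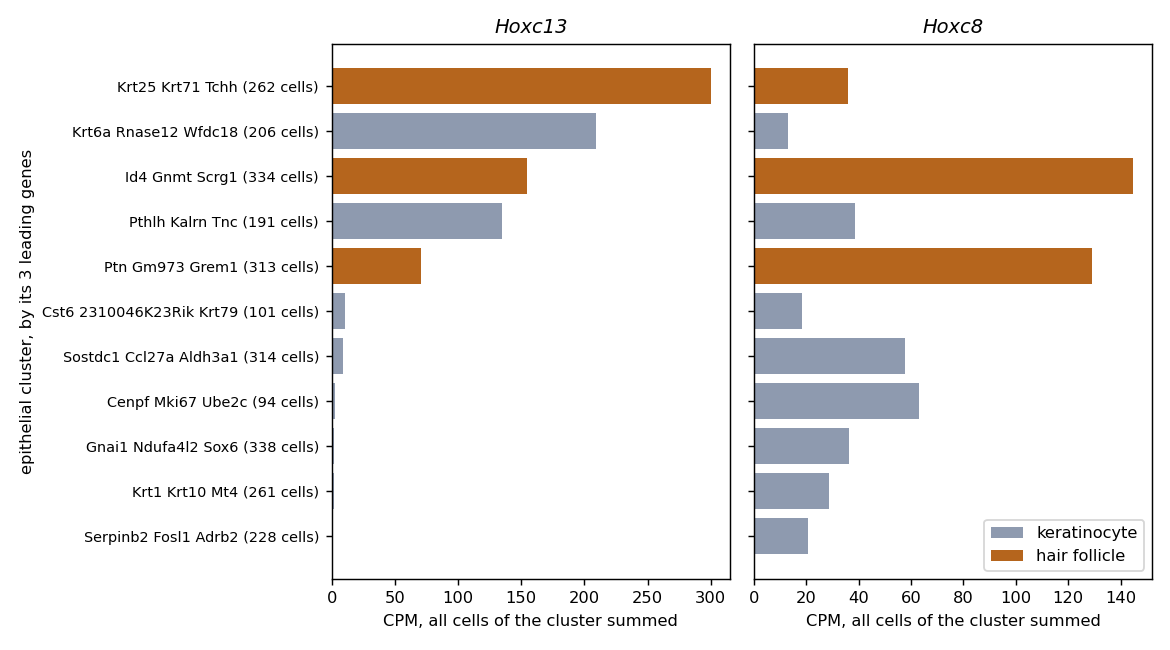
Hoxc13 (left) and Hoxc8 (right) in the 11 epithelial clusters, each named by its 3 leading genes, in CPM with all cells of a cluster summed. Bars are brown for HF clusters and grey for KC clusters. Hoxc13 is high in the 3 HF clusters and in 2 KC clusters and near 0 in the rest, while Hoxc8 is present in all 11 and highest in the HF clusters led by Id4 and Ptn.

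HFs had more Hox transcript than KCs, at 732 CPM against 316 CPM with all cells of a class summed. Besides Hoxc13 this included Hoxc8 at 111 ± 39 CPM against 32.5 ± 6.58 in KCs, Hoxb8 at 40.3 ± 17.6 against 15.5 ± 4.00, Hoxb2 at 52.3 ± 13.5 against 26.6 ± 6.52, and Hoxd8 at 27.7 ± 15.9 against 3.03 ± 3.59 (n = 7 for HFs). Hoxa7 and Hoxc4 had higher means in KCs, at 53.2 ± 22.8 and 12.2 ± 6.72 CPM against 44.6 ± 22.8 and 5.87 ± 3.53. Hoxa7 was highest in the suprabasal Krt1 and Krt10 cluster and in a basal Krt14 cluster, at 105 and 104 CPM.

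Endothelial cells (ECs) used a different cluster. The 83 ECs came from 2 clusters, led by Ccl21a, Mmrn1 and Cldn5 (49 cells) and by Fabp4 and Plvap (34 cells), and 82 of them held more UMIs of the endothelial markers than of any other list. HoxD gave 56.1 ± 9.70% of Hox UMIs in ECs, HoxB 24.2 ± 7.57%, HoxA 18.9 ± 4.64% and HoxC 0.758 ± 1.17% (n = 6 libraries with at least 10 ECs). Their summed Hox level was 773 ± 167 CPM in these 6, and 91.6% of ECs held a Hox UMI (51.9% after thinning) at a median depth of 6672 UMIs. By library the sum was 672, 600, 540 and 671 CPM in PBMCsec 1 to 4 and 939, 929, 943 and 884 CPM in vehicle 1 to 4. The treatments did not overlap in this sum, which rests on 31 to 81 Hox UMIs from 4 to 16 ECs per library. How often sums of other genes separate in this way was not counted, and the difference was not tested.

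The HoxD signal came from Hoxd8, Hoxd9 and Hoxd10, which lie next to each other on chromosome 2. Hoxd9 was at 181, 70.6, 108 and 217 CPM in ECs of PBMCsec 1 to 4 and at 212, 298, 224 and 164 CPM in those of vehicle 1 to 4. Hoxd8 was at 90.5, 159, 96.1 and 103 CPM and at 212, 252, 165 and 185 CPM. For Hoxd8 the highest PBMCsec value, 159 CPM from the 6 ECs of PBMCsec 2, lay just below the lowest vehicle value, 165 CPM in vehicle 3. The treatments overlapped for Hoxd9 and Hoxd10. The mix of the 2 EC clusters in each library is not given here. How many other genes separate in this way was not counted, and the difference was not tested. Hoxd10, a gene studied for keeping endothelium quiescent, was at 103, 52.9, 60.0 and 31.0 CPM and at 60.6, 103, 135 and 41.1 CPM. PBMCsec 2 and vehicle 1 held 6 and 4 ECs and were left out of means and tests. Each of the 3 genes was detected in ECs of all 8 libraries, and no EC value of any of them was as low as the highest FB value.

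Hoxd10 had 41 UMIs in 27 of 83 ECs (32.5%), 0 in 1472 FBs, which allows a share of up to 0.204%, and 0 in 2642 epithelial cells, which allows up to 0.114%. These limits are on cells with a captured UMI, not on cells that express the gene, and after thinning to 1000 UMIs the share in ECs was 13.9%. It was therefore at least 326-fold higher in ECs than in FBs and at least 643-fold higher than in epithelial cells, each against a floor of 3 counts over the class. Hoxd9 was higher in ECs than in FBs by a ratio of 41.3 (counting interval 29.8 to 57.8), and Hoxd8 by 5.93 (4.60 to 7.56). The lymphatic-type cluster with Ccl21a and Mmrn1 held 221 CPM of Hoxd9 and the cluster with Fabp4 and Plvap 139 CPM.

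The sequences upstream of these 3 genes are shown because all 3 were higher in ECs than in FBs and lie within a stretch of the HoxD cluster. They are the 250 bases before the RefSeq start on the plus strand of GRCm38.p6, at chr2:74691641-74691890 for Hoxd10, chr2:74697513-74697762 for Hoxd9 and chr2:74704365-74704614 for Hoxd8. Capitals mark a CCAAT box on either strand.
Hoxd10: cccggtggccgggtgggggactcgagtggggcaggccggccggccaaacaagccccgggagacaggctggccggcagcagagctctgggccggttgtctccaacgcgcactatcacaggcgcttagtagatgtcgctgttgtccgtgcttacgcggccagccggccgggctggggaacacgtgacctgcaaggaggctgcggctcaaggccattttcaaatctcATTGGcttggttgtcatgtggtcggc
Hoxd9: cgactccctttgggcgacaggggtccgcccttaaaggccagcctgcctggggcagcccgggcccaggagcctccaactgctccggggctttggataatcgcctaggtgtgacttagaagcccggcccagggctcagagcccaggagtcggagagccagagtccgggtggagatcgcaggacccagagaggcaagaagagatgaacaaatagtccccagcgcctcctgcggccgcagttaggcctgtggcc
Hoxd8: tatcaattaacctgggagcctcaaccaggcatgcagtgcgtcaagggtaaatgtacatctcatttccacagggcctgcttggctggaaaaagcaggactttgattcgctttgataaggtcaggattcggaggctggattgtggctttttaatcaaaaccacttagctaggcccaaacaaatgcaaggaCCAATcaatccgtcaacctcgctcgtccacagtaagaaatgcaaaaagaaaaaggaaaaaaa
The windows of Hoxd10 and Hoxd9 held 65.6% and 65.2% GC with 20 and 13 CG dinucleotides, and that of Hoxd8 held 44.4% GC with 6, against medians of 52.4% and 6 over 32851 windows. CCAAT, read on both strands, occurred upstream of Hoxd10 (minus strand) and Hoxd8, in 14 of 24 windows of the 22 Hox genes in the table (58.3%), and in 33.8% of all windows. The TATA box, searched as TATAAA, occurred in 4 of the Hox windows and 12.4% of all. The Cdx motif, searched as TTTATG, occurred in 5 of the Hox windows and 10.8% of all. The motif of paired Pbx and Hox proteins, searched as TGATNNAT, occurred in 4 and in 7.68%. The ETS motif, searched as CCGGAAG, occurred in 0 of the Hox windows and 6.91% of all. The binding motif of GATA factors, searched as AGATAA, occurred in 0 and in 9.99%. None of these 5 other motifs was in the windows of Hoxd8, Hoxd9 or Hoxd10. A match or its absence describes these letters only.

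HoxC genes were nearly absent from ECs. Hoxc4, Hoxc5, Hoxc8 and Hoxc9 had 0 UMIs in the 83 ECs, and Hoxc6 and Hoxc10 had 1 each. Against a floor of 3 counts over all ECs, FBs were at least 21.8-fold higher for Hoxc8, 11.1-fold for Hoxc9, 5.77-fold for Hoxc4 and 2.04-fold for Hoxc5. Hoxa9 also had 0 UMIs in ECs, and FBs were at least 3.28-fold higher. Hoxa7 (82.2 ± 26.8 CPM) and Hoxb7 (61.9 ± 50.9) were well represented in ECs, and Hoxb9 had 8 UMIs in 3 libraries.

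**Figure D4:**
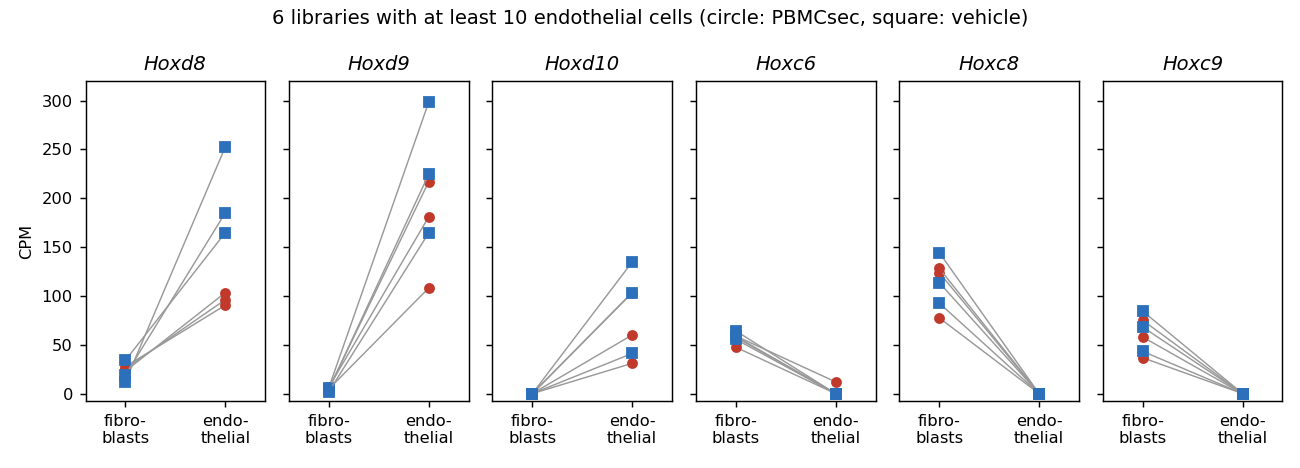
CPM of 3 HoxD and 3 HoxC genes in FBs and ECs of the 6 libraries with at least 10 ECs, with a line joining the classes of a library (circles PBMCsec, squares vehicle). Every line rises towards ECs for Hoxd8, Hoxd9 and Hoxd10 and falls for Hoxc6, Hoxc8 and Hoxc9.

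Between FBs and all vascular cells, edgeR tested only Hoxc8 after the filter on low counts, and it was higher in FBs by a log2 fold change of 2.15 (SE 0.42, adjusted p = 0.00183, n = 7 libraries). It passed mainly through its level in FBs, with 1557 UMIs there against 26 in vascular cells, all 26 in the Rgs5 cluster described next. Of all 2853 genes tested, 23.4% were higher and 18.1% lower in FBs. Without the filter 7 Hox genes were higher and 4 were lower in FBs than in all vascular cells, and 20 entries were not called. Of all genes, 10.8% were higher and 7.79% were lower. With ECs alone and no filter, a setting chosen after the data were seen, 7 Hox genes were higher in FBs and 5 were lower. Here 19 entries were not called, and 12.3% of all genes were higher and 6.58% lower. The 7 were Hoxc4, Hoxc5, Hoxc6, Hoxc8, Hoxc9, Hoxc10 and Hoxa9. The 5 were Hoxd8, Hoxd9, Hoxd10, Hoxb7 and Hoxb8. Hoxd9 had a log2 fold change of −4.72 (SE 0.34, edgeR adjusted p = 2.94e-41) and Hoxd8 of −1.93 (SE 0.30, adjusted p = 3.54e-09), and both were lower in FBs in 6 of 6 libraries.

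The other 100 vascular cells formed a cluster led by Rgs5 and Des, markers of pericytes and smooth muscle cells, but it was mixed. By the marker list with the most UMIs, 36 of its cells were pericytes or smooth muscle cells, 28 were FBs, 22 were melanocytes and the others belonged to further types. The 36 pericyte or smooth muscle cells held 99 Hox UMIs (529 CPM), of which 47.5% were HoxC and 3.03% HoxD, and the 28 FB-marked cells held 43, of which 60.5% were HoxC. Hoxc6 and Hoxb2 led in the former with 19 and 16 UMIs. The 22 melanocyte-marked cells held 3 Hox UMIs. For this cluster alone, with no filter and n = 5, Hoxc8 and Hoxc9 were higher in FBs and no Hox gene was lower. The remaining 28 entries were not called, and 7.22% of all genes were higher and 3.81% lower.

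Immune cells were almost free of Hox transcripts. Their summed Hox level was 13.1 ± 6.11 CPM (n = 8). Between FBs and immune cells, the 4 Hox genes that passed the filter were all higher in FBs, with log2 fold changes of 9.12 for Hoxc6, 7.19 for Hoxc8, 6.59 for Hoxc4 and 6.20 for Hoxc9, against 33.8% of 8662 genes higher and 34.0% lower. These 4 passed through their level in FBs. Without the filter 22 Hox genes were higher in FBs, 0 were lower and 9 entries were not called, against 23.7% of all genes higher and 23.8% lower. Hoxb4, known for its role in blood stem cells, had the most UMIs in immune cells, 32 in all, with a level of 3.93 ± 2.69 CPM and at least 1 UMI in 8 of 8 libraries. A UMI of Hoxb4 was found in 1.87% of immune cells against 9.17% of FBs and 15% of epithelial cells, and after thinning in 0.203%, 1.36% and 1.70%.

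An unnamed cluster of 85 cells, led by Slc26a7, Crabp1 and Wif1, had the highest level of Hoxc8 of all 34 clusters, at 217 CPM, and of Hoxc6, at 194 CPM. HoxC gave 81.1% of its 296 Hox UMIs. Among FB clusters, Hoxc9 was highest in the cluster led by Mrgprg (78.2 CPM), and Hoxa9 and Hoxc10 reached 24.9 and 16.6 CPM in the cluster led by Sfrp2. Hoxc6 (84.5 CPM) and Hoxd9 (15.9 CPM) were highest among FB clusters in that led by Igfbp2, Ednrb and Cyp26b1. These cluster values sum cells of all libraries and have no replicate error.

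PBMCsec and vehicle were compared in FBs to ask whether treatment changed the Hox set. The same comparison was made in epithelial and immune cells, and ECs were not part of it. No Hox gene passed the test in FBs or epithelial cells, and in immune cells none was tested after the filter on low counts. In FBs edgeR called 0 of the 15 Hox genes tested and 0 of all 9398 genes (0.00%), while 230 of all genes (2.45%) had an unadjusted p under 0.05 and DESeq2 also called 0. The 15 log2 fold changes lay between −0.92 and 0.78 with a median of −0.03, against 0.00 for all genes. Hoxc4 had the smallest unadjusted p of them, 0.0342, at a log2 fold change of 0.78 (SE 0.33, edgeR adjusted p = 1). Hoxa9 had −0.92 (SE 0.60), Hoxc10 −0.86 (SE 0.69), Hoxa10 −0.59 (SE 0.84), Hoxc9 −0.46 (SE 0.35), Hoxc8 −0.25 (SE 0.26) and Hoxc6 −0.01 (SE 0.22).

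The 8 Hox genes with the most UMIs in FBs and 4 in epithelial cells were also compared by a two-sided exact permutation test over the 70 ways to label the libraries, in which the smallest possible p is 0.0286. In FBs p was 0.257 for Hoxc8, 0.257 for Hoxc9, 0.943 for Hoxc6, 1 for Hoxa7, 0.114 for Hoxc4 and 0.743 for Hoxd8. Hoxa9 gave p = 0.0571 at 10 ± 10.7 CPM after PBMCsec against 29.2 ± 12.4 CPM after vehicle (exact permutation test, n = 4 each). Hoxb2 gave the same p at 16.8 ± 0.967 against 9.46 ± 7.16 CPM. In epithelial cells p was 0.83 for Hoxc13, 0.600 for Hoxc8, 0.200 for Hoxa7 and 0.343 for Hoxb2. The groups overlapped for all 12. The edgeR p-values above are the ones adjusted over all genes.

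**Figure D5:**
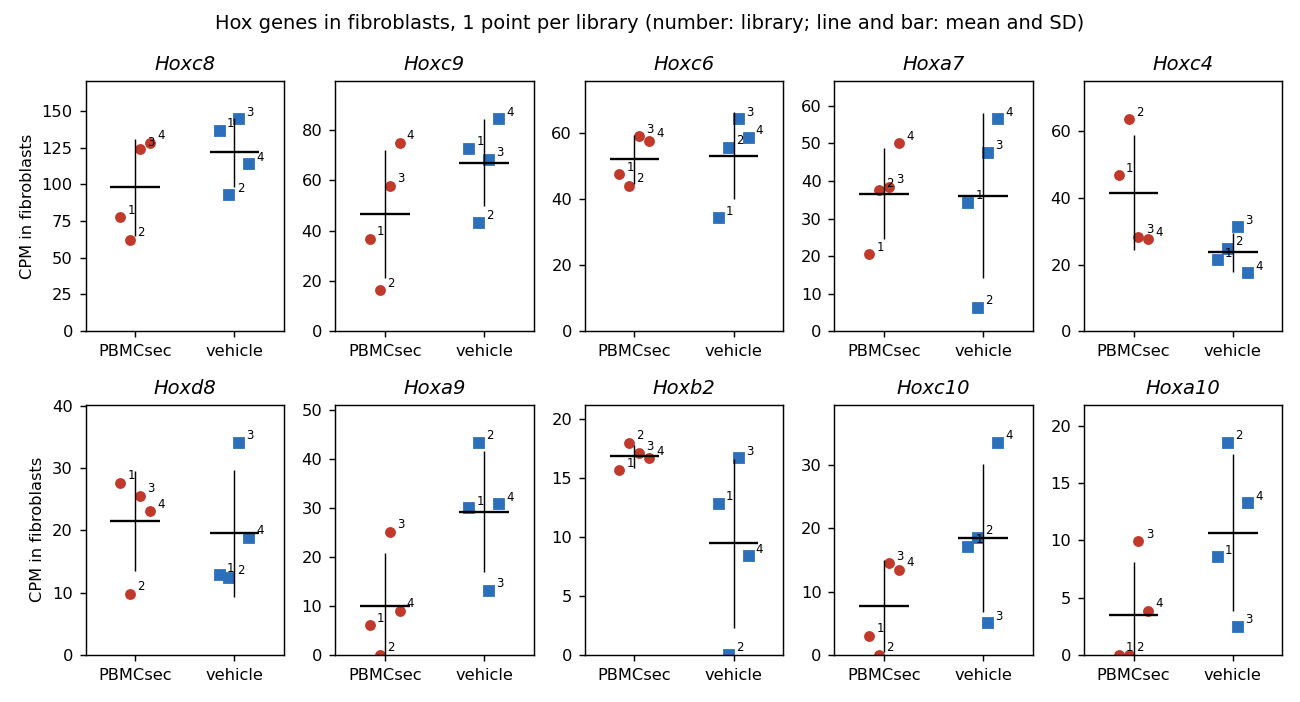
CPM of 10 Hox genes in FBs by treatment, with 1 point per library marked with its number, a line at the mean and a bar of 1 SD (n = 4 per group). The groups overlap in every panel, and in Hoxa9, Hoxc10 and Hoxa10 the PBMCsec points reach down to 0.

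In epithelial cells 0 of 18 Hox genes tested and 0 of 10742 genes in all (0.00%) were called, with 171 of all genes at an unadjusted p under 0.05 and 1 called by DESeq2. The Hox log2 fold changes lay between −0.93 and 0.31 with a median of −0.18, against 0.01 for all genes. In immune cells no Hox gene passed the filter. There 0 of 8030 genes (0.00%) were called, with 319 at an unadjusted p under 0.05 and 6 called by DESeq2. With the library number as a block 18 genes were called in immune cells, none of them a Hox gene. With 4 libraries a group, changes of the size of these standard errors were not detectable.

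Hox partners and regulators were read from further gene lists. Of the 8 TALE genes tested between FBs and epithelial cells, 3 were higher in FBs and 4 were lower, with a median log2 fold change of −0.26. For this list and the next ones the background is 32.0% of all genes higher and 36.8% lower. Genes were named by their UMIs in FBs, so that none of the 4 lower TALE genes is among them. Meis2 had a log2 fold change of 1.98 and Meis1 of 0.95, while Pknox1 had 0.19 and did not pass. In ECs Meis2 reached 72.8 ± 33.9 CPM and Meis1 1.72 ± 4.22 CPM. Of 18 Polycomb and Trithorax genes, which keep Hox clusters silent or active, 17 were tested, of which 4 were higher and 7 lower, and the median was −0.34. Kmt2a, the Trithorax methyltransferase, had 0.03 and did not pass, the demethylase Kdm6b had −0.34, Kdm6a had −0.34 and did not pass, and the Polycomb methyltransferase Ezh1 had 0.38.

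Transcripts from within the Hox clusters were sparse. Of 8 in the files 2 were tested, and both were lower in FBs than in epithelial cells, Hotairm1 from HoxA by −1.44 and Hoxb3os by −1.39. Hoxd3os1 was at 5.75 ± 3.25 CPM in FBs and 19.7 CPM in the mean of ECs, and Hoxaas3 at 0.860 ± 0.627 CPM in FBs. Hotair had 0 UMIs in FBs. Whether reads were counted by strand is not given in the sources used here, so values of transcripts antisense to a Hox gene are uncertain.

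Of 12 trunk dermis factors 10 were tested, and all 10 were higher in FBs than in epithelial cells, with a median log2 fold change of 8.58 against −0.08 over all genes. All 10 passed the filter through their level in FBs, since their means in epithelial cells were at most 3.13 CPM. Prrx1 stood at 903 ± 231 CPM in FBs, Twist1 at 252 ± 54.1, Osr2 at 141 ± 57.1 and Osr1 at 138 ± 50.2. Of 16 factors of limb or head mesenchyme only 1 passed the filter on low counts, and Lhx8, Alx4 and Tbx5 had 146, 67 and 66 UMIs in FBs. Of 9 retinoic acid genes tested 4 were higher and 3 lower, with a median of 0.24. They included Cyp26b1, which degrades retinoic acid, at 4.27, Dhrs3 at 0.76 and the receptor Rarg at −0.63, while Aldh1a3 was at 53.8 ± 33.0 CPM in FBs and was not tested. The 6 ParaHox and Cdx genes had 0 UMIs in FBs. No gene of these lists was called between PBMCsec and vehicle in FBs, epithelial cells or immune cells.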

How the data were processed

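Single-cell suspensions of dorsal skin were sequenced with the 10x Genomics 3′ kit. The authors aligned and counted reads with Cell Ranger 3.0.2 against mm10 according to the submitters' processing notes, and deposited filtered UMI counts per gene and barcode, which are raw counts. The study's methods name another Cell Ranger version, and how reads on either strand were counted is not given in the sources used here.

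The cell filter followed the study. A barcode was kept if it had between 500 and 4000 genes, no more than 20000 UMIs and a mitochondrial share of up to 5%, and 3 noise genes were left out. Cells were integrated and clustered with Seurat 5.3.0 (2000 variable genes without Hox genes, 30 dimensions, resolution 1), and clusters were named from marker lists. Doublets were not called. Counts were summed per library and class with at least 10 cells. The quasi-likelihood test of edgeR 4.0.16, after TMM scaling and filterByExpr, was applied to these sums, with the library as a block between classes and Benjamini-Hochberg adjustment over all genes. DESeq2 1.42.0 was an alternative. The study itself compared cells by a Wilcoxon test. The fits were also run on simulated counts with known changes. The outcome is not reported here, and nothing is drawn from it. Ratios and shares carry exact 95% intervals for counting error only. CPM use raw totals, while fold changes use TMM. Between same-numbered libraries, deviations from the treatment mean correlated at −0.02 to 0.21 in FBs and −0.01 to 0.48 in epithelial cells. In immune cells the correlation was 0.38 to 0.40, and only there did the libraries of every number correlate best with each other. The main fits between treatments were unpaired in every class, immune cells included, and the block by number was an alternative. The permutation test was unpaired too.

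The members and gene lists were chosen with earlier results of these data known. All members are accounted for by UMIs, those with at least 100 by class, the 8 most abundant in FBs by treatment, and up to 4 genes of each further list are named. Exon overlaps are from GENCODE M21 on GRCm38, and promoter windows and their positions from RefSeq on GRCm38.p6. No genome sequence was used. Some genes are not reported here.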

Additional observations from a re-analysis of the deposited data

How the results depend on the processing

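No Hox gene was called between PBMCsec and vehicle in FBs, epithelial cells or immune cells under any of the alternatives run. Over all genes, 0 calls in FBs became 2 with libraries 1 and 2 alone, and 0 in epithelial cells became 1 with DESeq2. In immune cells 0 became 5 without a filter on low counts, 6 with DESeq2, 3 with libraries 1 and 2 alone, 3 with libraries 3 and 4 alone, and 0 to 1 when a library was left out (1 without vehicle 2). The replicate block, pairing libraries by number, gave 18 calls in immune cells and 0 in FBs and in epithelial cells. The same libraries supply every class, and whether their numbers pair them was not tested. In FBs, 2 of 4 numbers had libraries that correlated best with each other, in epithelial cells 3 of 4, and in immune cells every number.

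Between FBs and epithelial cells, no filter on low counts moved the Hox genes called from 6 to 10 higher and from 7 to 11 lower. Between FBs and immune cells it moved them from 4 to 22 higher, and leaving out a library gave 4 to 8, with 8 without vehicle 2. Between FBs and vascular cells, 1 higher and 0 lower became 7 and 4 without the filter and 7 and 5 with ECs alone. With the Rgs5 cluster alone 2 were higher. Leaving out a library gave 1 to 3 higher and 0 to 2 lower, with 3 and 2 without vehicle 2 and 1 lower without PBMCsec 1. The construction of these settings changes how many low genes are tested. The cause of the other shifts was not tested. Members' fold changes between classes kept their side of the threshold in 228 of 233 comparisons, and the 5 exceptions were Hoxb4 against epithelial cells. Between treatments in FBs, the fold changes of the 8 most abundant members changed sign in 21 of 118 comparisons, and the lowest adjusted p among these 118 was 0.452 (edgeR or DESeq2).

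The mean share of paralog groups 9 to 13 in FBs stayed between 21.3% and 25.6% over 10 alternatives. Most of these leave out 1 library, and a mean does not address the spread between libraries. With up to 10% mitochondrial counts, vehicle 2 went from 35.3% to 30.8% and PBMCsec 2 from 5.16% to 6.01%. Without the 5% of cells with the most UMIs they were at 39.7% and 5.16%. Depth limits the ECs, at 83 cells, and the FBs of vehicle 1 and vehicle 2.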
